A study of Homo sapiens with 6 samples.

Results

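The kinetochore is the protein assembly that ties each chromosome to spindle microtubules, and the genes described here are 45 genes chosen by name for their part in it or in the spindle checkpoint. Earlier results of these data were known when they were chosen. All 45 are protein-coding and each had 1 row among the 23619 genes of the deposited table. Bulk RNA was taken from T24 cells, a human bladder cancer line in long use, listed as wild type (WT) in the labels. The control group held 3 libraries labelled as untreated. The other group held 3 libraries from cells given 3.84 µM Caba-780, a near-infrared fluorescence imaging drug, for 24 h. No vehicle is named for the controls, and both groups share the line, the medium and the RNA kit. The comparison asks how the drug changed the expression of these genes. Whether replicates were grown as separate cultures is not stated, and the p-values therefore reflect how much these libraries differ, a spread that may be technical.

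As background, a nucleosome carrying the histone variant CENP-A marks the centromere, and a constitutive network of CENP proteins sits on it through the cell cycle. At mitosis this network recruits the KMN network (KNL1, the MIS12 complex and the NDC80 complex), which binds microtubules. While a kinetochore is unattached, the kinases TTK and BUB1 and the MAD and BUB proteins keep the anaphase-promoting complex inactive, and the chromosomal passenger complex with the kinase Aurora B corrects wrong attachments. Many of these genes are transcribed mainly in G2 and mitosis, and their promoters often carry the cell cycle genes homology region (CHR), a short element near the start site bound by the MuvB complexes.

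Levels below are normalized counts, which are read counts divided by 1 size factor per library. A change is the difference in log2(value + 1), treated minus control, given with its standard error (SE) from limma, and it was called where the p-value adjusted over all genes tested was under 0.05. Reads in genes ranged from 14591234 to 15983035 per library, and members ranged from 109 reads (CENPP in control replicate 2) to 8786 reads (CENPF in control replicate 3). Control replicate 3 stood apart, with reads in 13627 genes against 19467 to 20308 in the other 5 libraries. It had 638 genes with 1 to 9 reads, against 5636 to 6100 in the others. Its correlation with the other libraries over tested genes was 0.85 to 0.87, against 0.95 to 0.99 among those. Counts and called changes are therefore given with all 6 libraries and with control replicate 3 left out (the 5-library fit). The cytokeratins KRT7, KRT8 and KRT18 made up nearly all of the epithelial marker sum of 7728 to 12079 normalized counts in controls and 10656 to 14397 with Caba-780, while CDH1 was at 0 to 2.69. Of the urothelial markers, UPK1B had 113 to 224 normalized counts, and UPK1A, UPK2 and GATA3 had at most 14.7. Fibroblast markers summed to 242 to 507 in controls and 128 to 231 with Caba-780, mostly COL1A1, and endothelial and leukocyte markers summed to at most 8.49.

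Promoter sequences from RefSeq (GRCh38.p14) are shown for 5 members as examples, because they carry the letters of cell cycle elements and differ in how the gene moved. CENPA, CDCA8, INCENP and BUB1B fell in the 5-library fit, and CENPU rose. The examples do not stand for each direction. In the window that also holds 50 bases after the start, CENPO, SKA1 and SKA3 rose and have CHR letters. CENPE, SPC24, SGO2, AURKB and SKA2 fell and have none there. Each line gives the 250 bases before the RefSeq start site, 5′ to 3′ on the gene's strand. Capitals mark TTTGAA or TTCGAA (CHR letters), CCAAT (the box bound by NF-Y) and 4 spellings of the E2F site (TTTCCCGC, TTTCGCGC, TTTGCCGC and TTTGGCGC), each searched on both strands.
CENPA chr2:26785806-26786055 (plus strand): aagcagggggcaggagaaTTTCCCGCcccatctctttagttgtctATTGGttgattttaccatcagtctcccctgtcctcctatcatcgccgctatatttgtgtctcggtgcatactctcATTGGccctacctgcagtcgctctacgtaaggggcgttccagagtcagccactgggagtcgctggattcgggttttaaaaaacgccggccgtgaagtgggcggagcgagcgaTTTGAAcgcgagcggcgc
CDCA8 chr1:37692266-37692515 (plus strand): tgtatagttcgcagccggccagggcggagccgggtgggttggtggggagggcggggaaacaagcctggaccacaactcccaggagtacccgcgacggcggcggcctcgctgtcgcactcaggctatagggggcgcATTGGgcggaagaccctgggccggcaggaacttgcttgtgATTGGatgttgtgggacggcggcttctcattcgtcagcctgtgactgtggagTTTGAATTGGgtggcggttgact
INCENP chr11:62123761-62124010 (plus strand): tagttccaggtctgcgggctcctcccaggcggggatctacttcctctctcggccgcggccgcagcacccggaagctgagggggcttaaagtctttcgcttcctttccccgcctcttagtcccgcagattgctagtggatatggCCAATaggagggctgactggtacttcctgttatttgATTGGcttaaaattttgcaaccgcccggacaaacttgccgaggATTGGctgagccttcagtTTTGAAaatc
BUB1B chr15:40160819-40161068 (plus strand): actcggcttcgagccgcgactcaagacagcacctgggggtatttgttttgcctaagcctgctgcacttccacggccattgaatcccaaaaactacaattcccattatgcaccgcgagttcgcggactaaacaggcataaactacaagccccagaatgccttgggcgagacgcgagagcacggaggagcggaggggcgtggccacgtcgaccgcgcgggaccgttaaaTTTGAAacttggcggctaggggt
CENPU chr4:184734097-184734346 (minus strand): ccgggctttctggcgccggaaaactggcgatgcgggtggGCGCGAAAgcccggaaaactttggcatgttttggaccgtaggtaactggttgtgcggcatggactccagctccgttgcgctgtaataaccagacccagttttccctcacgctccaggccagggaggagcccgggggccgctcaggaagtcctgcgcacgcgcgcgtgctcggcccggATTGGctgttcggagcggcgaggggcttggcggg
In the first 4 of these stretches TTTGAA lies within the last 23 bases before the start site. In CDCA8 it shares its last base with a CCAAT box match on the other strand. CENPU held no CHR letters in its window, and had a CCAAT match 34 bases before the start and an E2F match 211 bases before it.

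**Figure D1:**
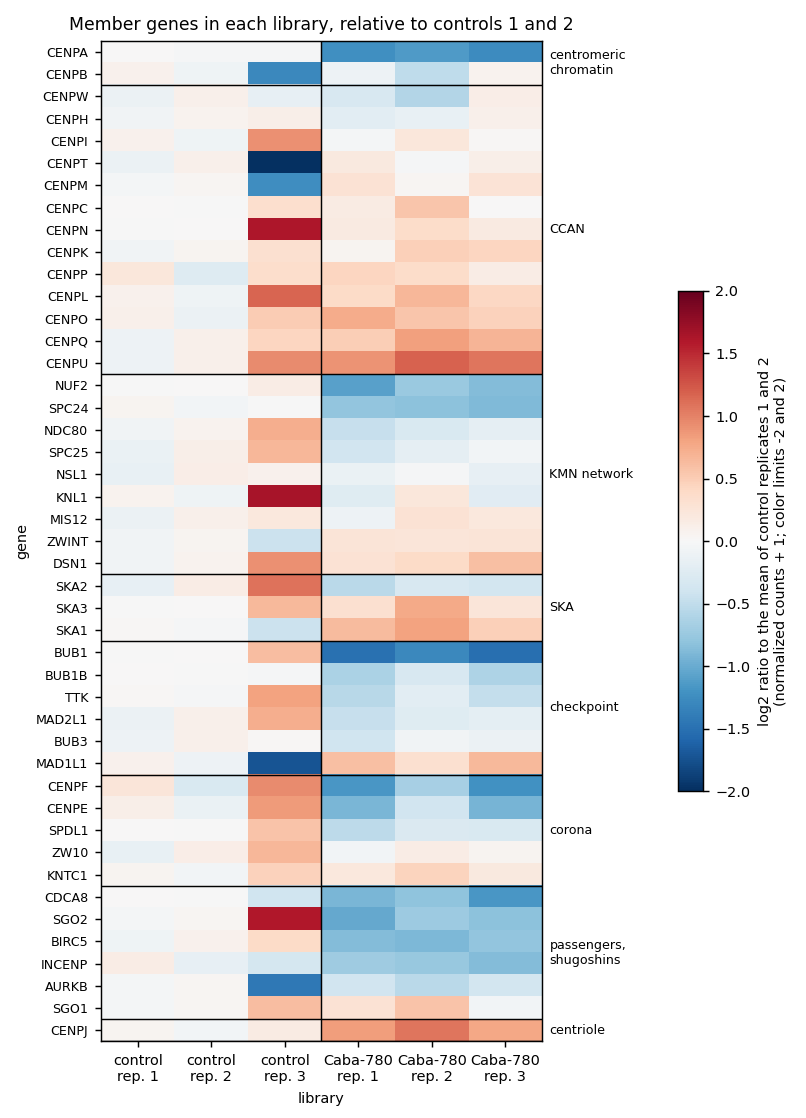
Level of each of the 45 genes (rows, grouped by role) in each of the 6 libraries (columns), as the log2 ratio of normalized counts + 1 to the mean of control replicates 1 and 2; the color limits are −2 and 2. BUB1 and CENPA are low in all 3 Caba-780 libraries, CENPU is high in them, and control replicate 3 departs from the other controls in both directions.

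With all 6 libraries, BUB1 and CENPA fell and no member rose, so 2 of 45 members (4.44%) were called lower against 0.26% of the 13847 genes tested, and 0 of 45 were called higher against 0.744%. At an unadjusted limma p under 0.05, 13 members were lower and 4 higher, against 6.9% and 10.1% of all genes. The quasi-likelihood test of edgeR also called 2 lower and 0 higher, against 0.246% and 0.715% of genes, and DESeq2 on the same reads called 11 lower and 2 higher, against 3.57% and 5.27% of genes. Without control replicate 3, 14 members (31.1%) fell, against 15.2% of 13708 genes, and 9 (20%) rose, against 17.2%. The share that fell was above that over all genes, and the share that rose was close to it. That background holds genes near the filter of 10 normalized counts, while each member had at least 109 reads in every library. The filter of 3 libraries also admits genes read only with Caba-780, but none read only in control replicates 1 and 2. The shares are therefore not fully comparable. Scaling by library totals in place of size factors gave 11 lower and 12 higher in that fit, against 9.7% and 21.5% of all genes. The median change was −0.08 over the members and −0.02 over all genes in that fit, and with 6 libraries it was −0.17 and 0.10. All 45 members were tested. In bulk RNA, fewer cells in a phase of the cycle and less RNA per cell cannot be told apart.

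Calls were counted by the role of the gene. Of 6 genes of the chromosomal passenger complex and shugoshins, 5 fell and 0 rose in the 5-library fit, with a median change of −0.81. Of 13 genes of the constitutive network, 0 fell and 4 rose, with a median of 0.24. The checkpoint kinases and MAD and BUB proteins had 3 of 6 lower and 1 higher, the fibrous corona 2 of 5 lower, the KMN network 2 of 9 lower and 1 higher, and the SKA complex 1 of 3 lower and 2 higher. Over all genes tested in that fit, 15.2% were called lower and 17.2% higher. The KMN network, at 22.2% lower and 11.1% higher, was near these shares. The constitutive network had 30.8% higher, and the passenger complex and shugoshins 83.3% lower. The groups are small, and no difference between them was tested. In the authors' deposited table, 8 members had a lower level and 1 a higher level at an adjusted p under 0.05, against 1.2% and 2.35% of all 23619 genes. That background includes genes too low for the limma filter, which all members passed, so these shares are not comparable with those of the limma fits.

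**Figure D2:**
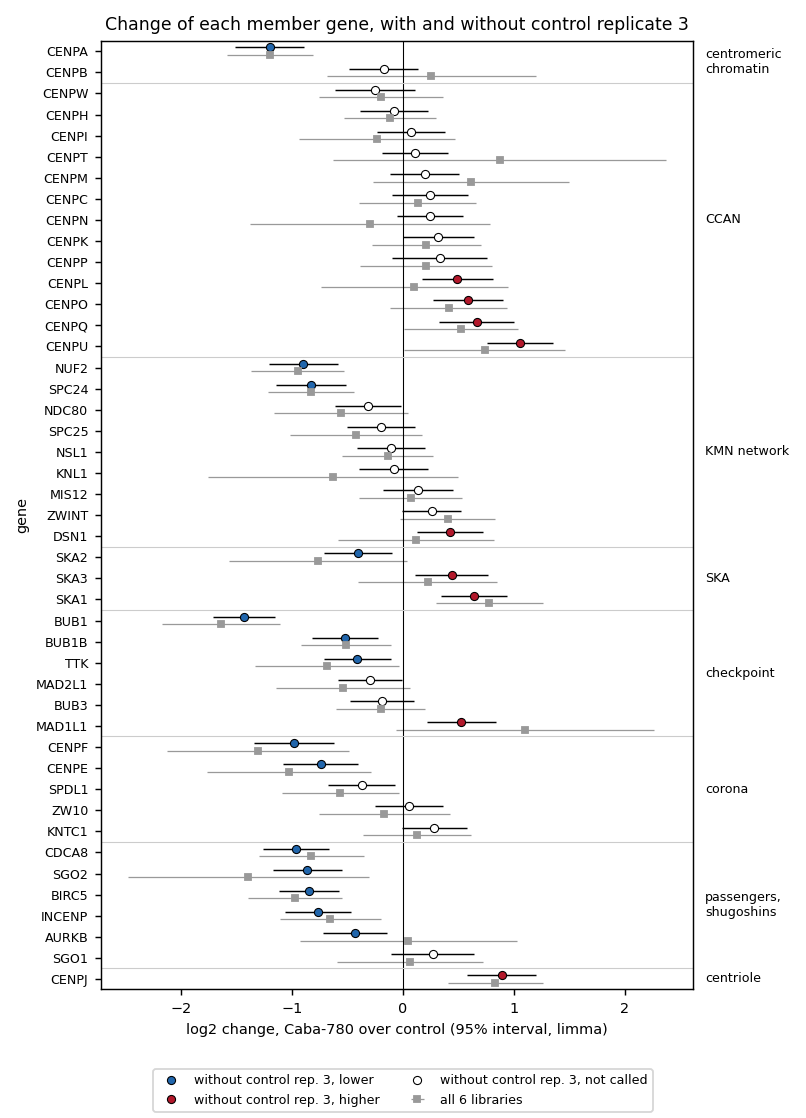
Change of each gene (rows, grouped by role) as log2 of Caba-780 over control with its 95% interval from limma; gray squares are the fit of all 6 libraries and circles the fit without control replicate 3, blue where lower, red where higher and white where not called. The intervals of the 6-library fit are wider for genes such as CENPT, KNL1 and SGO2, and the passenger complex lies left of 0 in the 5-library fit.

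Without control replicate 3, the treated and control libraries did not overlap in 17 members with lower and 13 with higher levels (37.8% and 28.9%), against 28.4% and 28% of all genes. With all 6 libraries the counts were 16 lower and 5 higher (35.6% and 11.1%), against 13.4% and 17.9%. Control replicate 3 lay above all other 5 libraries in 21 members, below them in 7 and between them in 17. It was 3.12 times the mean of the other controls for KNL1 and 0.201 times for CENPT. Across the 45 members the log2 ratio of control replicate 3 to the other controls had a Spearman rho of −0.67 with the GC content of the transcripts, and across 13838 tested genes rho was −0.64. The log2 ratio of Caba-780 replicate 2 to the other treated libraries had a rho of −0.68 over the members and −0.60 over all of those genes. These are descriptions across genes, and each ratio rests on 1 library in its numerator. The change in the 5-library fit had a rho of −0.04 with GC content over the members. It was −0.13 over those of the 13838 genes that this fit also tested. Leaving out Caba-780 replicate 2 as well gave 15 members lower and 8 higher, against 15.3% and 16.7% of all genes.

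**Figure D3:**
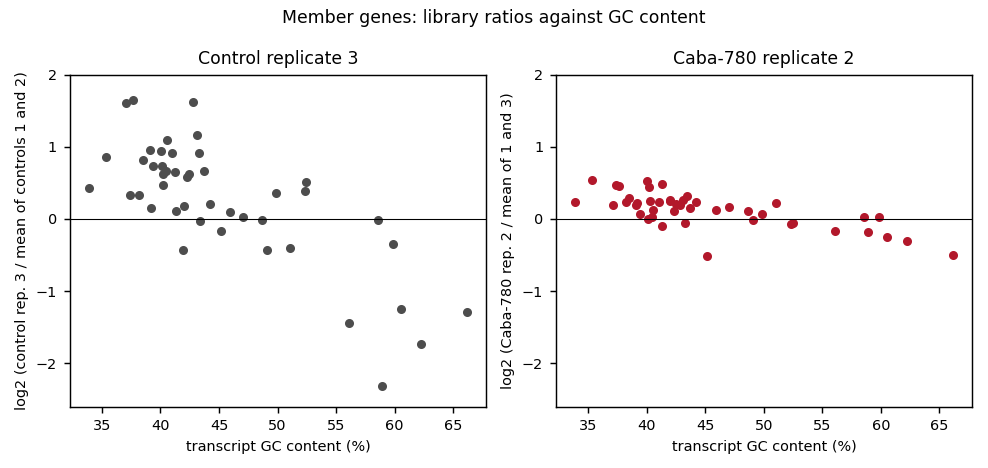
Each point is 1 of the 45 genes; the x axis is the GC content of its transcripts in percent, and the y axis is the log2 ratio of control replicate 3 to the mean of control replicates 1 and 2 (left) or of Caba-780 replicate 2 to the mean of replicates 1 and 3 (right). Both ratios decline with GC content, over a wider range in control replicate 3.

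CENPA (ENSG00000115163, chromosome 2, 26764289 to 26801067), the histone H3 variant of centromeric nucleosomes, had 751, 735 and 733 normalized counts in the controls, in the order of their replicate numbers as for all genes that follow. With Caba-780 it had 318, 339 and 309. The 3 controls were close to each other, control replicate 3 included, and all 3 treated libraries lay far below them. CENPA fell from 739 ± 9.82 to 322 ± 15.5 (SD, n = 3), by 1.2 ± 0.16 (SE) on the log2 scale with 6 libraries (limma adjusted p = 0.0384) and by 1.2 ± 0.15 in the 5-library fit (limma adjusted p = 8.57e-07). CENPB, which binds a motif in alpha-satellite DNA, had 3175, 2821 and 1220 in controls and 2800, 2108 and 3158 with Caba-780, and the groups overlapped. Its change in the 5-library fit was −0.17, with a 95% interval of −0.49 to 0.14, and with 6 libraries it was 0.26 ± 0.39.

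The constitutive centromere-associated network held the largest rise of any member in the 5-library fit, that of CENPU. CENPU (ENSG00000151725, chromosome 4, 184694618 to 184734133), a subunit of the CENP-O group, had 609, 699 and 1266 normalized counts in controls and 1221, 1487 and 1375 with Caba-780. The treated libraries lay above control replicates 1 and 2, and control replicate 3 lay among the treated ones. Its change was 0.74 ± 0.30 (SE) with 6 libraries, which did not pass (limma adjusted p = 0.288), and it rose by 1.06 ± 0.15 in the 5-library fit (limma adjusted p = 3.21e-06). PRIMPOL, which shares 11.7% of the exon bases of CENPU on the opposite strand, rose by 0.49 in that fit (limma adjusted p = 0.0254), and its 6-library change was 0.31 (0.54).

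Its partners CENPQ and CENPO also rose in the 5-library fit. CENPQ (ENSG00000031691, chromosome 6, 49463378 to 49493107) had 272, 314 and 392 normalized counts in controls and 413, 516 and 467 with Caba-780, and the groups did not overlap. Its rise was 0.67 ± 0.16 (limma adjusted p = 0.00272) in the 5-library fit and the change was 0.52 ± 0.22 (0.288) with 6 libraries. CENPO (ENSG00000138092, chromosome 2, 24793136 to 24822376) had 494, 422 and 654 in controls and 764, 669 and 630 with Caba-780. Control replicate 3 lay inside the treated range, and the other controls lay below it. CENPO rose by 0.59 ± 0.15 in the 5-library fit (limma adjusted p = 0.00456), and with 6 libraries the change was 0.41 ± 0.22 (0.394). Of its exon bases, 27.0% are shared with ADCY3 on the opposite strand, which read 1391 to 1757 in controls and 1793 to 2037 with Caba-780. The strand setting of the counting is not given in the sources used here, so such reads cannot be told apart. CENPP, the other subunit of this group, had 112 to 173 in controls and 149 to 182 with Caba-780 and was not called (0.33, interval −0.09 to 0.76), and 38.0% of its exon bases are shared with IPPK on the opposite strand, which rose by 0.62 in that fit (limma adjusted p = 0.0174) and changed by 0.90 with 6 libraries (0.223).

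CENPL (ENSG00000120334, chromosome 1, 173799550 to 173824720), which pairs with CENPN to contact the CENP-A nucleosome, had 419, 375 and 889 normalized counts in controls and 520, 630 and 528 with Caba-780. Control replicate 3 was the highest of the 6 libraries and the other controls were the lowest. CENPL rose by 0.49 ± 0.16 in the 5-library fit (limma adjusted p = 0.0177), while with 6 libraries the change was 0.10 ± 0.35 (0.89) and its sign turned negative with DESeq2. Apart from CENPP, the other 8 genes of the network were not called in either fit. In the 5-library fit their changes ran from −0.25 for CENPW, a histone-fold partner of CENPT, to 0.32 for CENPK. CENPC, the scaffold that links the network to the MIS12 complex, changed by 0.24 with an interval of −0.10 to 0.59. CENPT, which recruits the NDC80 complex, changed by 0.11 with an interval of −0.19 to 0.40, so a change as large as that of CENPU lay outside these intervals. With 6 libraries the change of CENPT was 0.87 ± 0.63, with control replicate 3 at 193 normalized counts against 887 and 1030 in the other controls.

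Within the KMN network, 2 of the 4 subunits of the NDC80 complex fell in the 5-library fit. NUF2 (ENSG00000143228, chromosome 1, 163266576 to 163355764), which pairs with NDC80 at the microtubule-binding end, had 958, 969 and 1070 normalized counts in controls and 453, 574 and 529 with Caba-780. SPC24 (ENSG00000161888, chromosome 19, 11131520 to 11155808), of the end that faces the centromere, had 693, 642 and 662 in controls and 384, 379 and 361 with Caba-780. For both genes every treated library lay below every control, and control replicate 3 was near the other controls. NUF2 fell by 0.90 ± 0.15 and SPC24 by 0.83 ± 0.15 in the 5-library fit (limma adjusted p = 4.81e-05 and 0.000144). With 6 libraries their changes were of like size, −0.95 ± 0.18 and −0.83 ± 0.16, and did not pass (limma adjusted p = 0.0781 and 0.088).

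NDC80 had 1299, 1433 and 2271 normalized counts in controls and 988, 1103 and 1211 with Caba-780, with no overlap, and its change of −0.31 ± 0.14 in the 5-library fit was not called (limma adjusted p = 0.0958), nor was that of −0.56 ± 0.25 with 6 libraries (0.325). SPC25 changed by −0.20 ± 0.15 in that fit, and its groups overlapped. DSN1 (ENSG00000149636, chromosome 20, 36751791 to 36773818), a MIS12 complex subunit, had 873, 963 and 1735 in controls and 1119, 1200 and 1387 with Caba-780. Control replicate 3 was above all treated libraries and the other controls were below them. DSN1 rose by 0.42 ± 0.15 in the 5-library fit (limma adjusted p = 0.0269), whereas its change with 6 libraries was 0.12 ± 0.29 (0.848). MIS12, NSL1, KNL1 and the KNL1-binding protein ZWINT were not called, with changes of −0.10 to 0.26 in that fit. KNL1, the scaffold for BUB1, had 1569, 1411 and 4650 in controls and 1259, 1734 and 1271 with Caba-780, so its 6-library change of −0.63 ± 0.47 rests on control replicate 3.

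The SKA complex, which helps the NDC80 complex track microtubule ends, was split. SKA1 (ENSG00000154839, chromosome 18, 50374995 to 50394173) had 849, 823 and 623 normalized counts in controls and 1297, 1462 and 1167 with Caba-780. All treated libraries were above all controls, and SKA1 rose by 0.64 ± 0.15 in the 5-library fit (limma adjusted p = 0.00129), against 0.78 ± 0.20 with 6 libraries (0.143). SKA3 (ENSG00000165480, chromosome 13, 21153595 to 21176602) had 616, 618 and 971 in controls and 773, 1047 and 727 with Caba-780. The treated libraries lay above control replicates 1 and 2 and on both sides of control replicate 3, and SKA3 rose by 0.44 ± 0.16 in the 5-library fit (limma adjusted p = 0.035). With 6 libraries its change was 0.22 ± 0.26 (limma adjusted p = 0.676). SKA2 went the other way, with 996, 1224 and 2358 in controls and 762, 886 and 861 with Caba-780, and fell by 0.40 ± 0.15 (limma adjusted p = 0.0377) in the 5-library fit. With control replicate 3, its highest library, the change was −0.77 ± 0.33 and was not called (limma adjusted p = 0.31).

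Of the checkpoint genes, BUB1 showed the largest fall of any member in either fit. BUB1 (ENSG00000169679, chromosome 2, 110637698 to 110678114), the kinase that marks centromeric chromatin and recruits other checkpoint proteins, had 3268, 3273 and 5018 normalized counts in controls and 1156, 1334 and 1148 with Caba-780. Control replicates 1 and 2 were nearly equal, control replicate 3 was higher, and all treated libraries were far below. BUB1 fell from 3853 ± 1009 to 1213 ± 105 (SD, n = 3), by 1.64 ± 0.22 (SE) on the log2 scale with 6 libraries (limma adjusted p = 0.0387) and by 1.43 ± 0.14 in the 5-library fit (limma adjusted p = 5.41e-09). Its treated mean was 37.1% of the mean of control replicates 1 and 2.

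BUB1B (ENSG00000156970, chromosome 15, 40161023 to 40221136), which encodes BUBR1, a subunit of the inhibitor of the anaphase-promoting complex, had 1564, 1558 and 1535 normalized counts in controls and 1005, 1254 and 1016 with Caba-780. The controls were tight and the treated libraries all lower, and BUB1B fell by 0.52 ± 0.14 in the 5-library fit (limma adjusted p = 0.00688). The change was the same size with 6 libraries, −0.51 ± 0.17, without passing (limma adjusted p = 0.215). TTK, the kinase that starts checkpoint signalling (also called MPS1), fell by 0.41 ± 0.15 in the 5-library fit (limma adjusted p = 0.0322), from 1257 and 1217 in control replicates 1 and 2 to 845, 1065 and 892. Control replicate 3 had 2168, and with it the change was −0.68 ± 0.27 (limma adjusted p = 0.276). MAD2L1 and BUB3 were not called, with changes of −0.29 and −0.19 in the 5-library fit and −0.54 and −0.20 with 6 libraries.

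MAD1L1 (ENSG00000002822, chromosome 7, 1815793 to 2233243), which holds MAD2 at unattached kinetochores, was the checkpoint gene that rose. It had 671, 591 and 191 normalized counts in controls and 962, 788 and 989 with Caba-780, and the groups did not overlap. The rise was 0.53 ± 0.15 in the 5-library fit (limma adjusted p = 0.00871), and with 6 libraries the change was 1.10 ± 0.48 (0.316), with control replicate 3 as the lowest library.

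In the fibrous corona, the outermost layer of an unattached kinetochore, CENPF and CENPE fell in the 5-library fit. CENPF (ENSG00000117724, chromosome 1, 214603195 to 214664588), a large coiled-coil protein long used as a marker of G2 cells, had 6144, 4197 and 9909 normalized counts in controls and 2316, 3270 and 2235 with Caba-780. CENPE (ENSG00000138778, chromosome 4, 103105806 to 103198409), the kinesin that carries chromosomes to the spindle equator, had 1384, 1171 and 2305 in controls and 674, 978 and 670 with Caba-780. In both genes control replicate 3 was the highest library, Caba-780 replicate 2 the highest treated one, and the groups did not overlap. CENPF fell by 0.98 ± 0.17 and CENPE by 0.74 ± 0.16 in the 5-library fit (limma adjusted p = 0.000202 and 0.00107). With 6 libraries their changes were −1.30 ± 0.34 and −1.03 ± 0.31 and did not pass (limma adjusted p = 0.151 and 0.191). SPDL1, an adaptor for dynein, had 895 to 1341 in controls and 629 to 733 with Caba-780, and its change of −0.37 ± 0.15 missed the threshold in the 5-library fit (limma adjusted p = 0.0515), as did −0.56 ± 0.22 with 6 libraries (0.27). ZW10 and KNTC1, subunits of the RZZ complex that brings in SPDL1, changed by 0.06 and 0.28 in the 5-library fit and by −0.17 and 0.13 with 6 libraries, and were not called.

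All 4 subunits of the chromosomal passenger complex fell in the 5-library fit, and none of them passed with 6 libraries. CDCA8 (ENSG00000134690, chromosome 1, 37692418 to 37709719), which encodes borealin, had 1873, 1841 and 1410 normalized counts in controls and 987, 1060 and 830 with Caba-780. BIRC5 (ENSG00000089685, chromosome 17, 78214186 to 78225636), which encodes survivin, had 3545, 3965 and 4905 in controls and 2056, 2021 and 2184 with Caba-780. In both, each treated library was below each control. CDCA8 fell by 0.96 ± 0.15 and BIRC5 by 0.85 ± 0.13 in the 5-library fit (limma adjusted p = 1.1e-05 and 1.99e-05), and their changes with 6 libraries were −0.83 ± 0.20 and −0.97 ± 0.18 (limma adjusted p = 0.129 and 0.0743).

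INCENP, the scaffold of the complex, had 1731, 1397 and 1226 normalized counts in controls and 956, 922 and 860 with Caba-780, and fell by 0.77 ± 0.15 in the 5-library fit (limma adjusted p = 0.000195), against −0.65 ± 0.19 with 6 libraries (0.18). AURKB, its kinase, had 1509, 1583 and 571 in controls and 1188, 1059 and 1198 with Caba-780. Control replicate 3 was the lowest library for AURKB, so that the groups overlapped with 6 libraries (change 0.05 ± 0.41), whereas in the 5-library fit AURKB fell by 0.43 ± 0.14 (limma adjusted p = 0.0196). The shugoshins protect centromeric cohesin. SGO2 fell by 0.86 ± 0.15 in that fit (limma adjusted p = 8.5e-05), from 842 and 886 in control replicates 1 and 2 to 423, 520 and 487, while control replicate 3 had 2623. With it the change was −1.39 ± 0.45 and did not pass (limma adjusted p = 0.215). SGO1 had 262, 276 and 415 in controls and 329, 400 and 259 with Caba-780 and was not called (0.27 in the 5-library fit, interval −0.10 to 0.64, and 0.06 with 6 libraries).

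CENPJ (ENSG00000151849, chromosome 13, 24882284 to 24922889) carries a CENP name but encodes CPAP, a protein of centriole assembly. It had 417, 384 and 451 normalized counts in controls and 715, 841 and 682 with Caba-780. Controls were close together, all treated libraries were above them, and CENPJ rose by 0.89 ± 0.15 in the 5-library fit (limma adjusted p = 6.17e-05) and changed by 0.83 ± 0.18 with 6 libraries (0.109).

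Levels per length, as RPKM (reads per kilobase of gene length, scaled to the reads in genes of the library), allow subunits to be set side by side. In control replicates 1 and 2 the mean level ran from 0.894 RPKM for CENPP and 3.11 for CENPC to 68.6 for CENPB and 86.6 for ZWINT. In the passenger complex BIRC5 stood at 63.9, CDCA8 at 48.9, AURKB at 44.8 and INCENP at 22.7 RPKM in these controls, and at 38.1, 27.0, 35.7 and 14.2 with Caba-780. INCENP stayed the lowest of the 4, and the order of CDCA8 and AURKB was exchanged. In the NDC80 complex SPC25 and NDC80 stood at 38.1 and 24.7 RPKM in controls and 35.5 and 21.3 with Caba-780, while NUF2 and SPC24 went from 18.6 and 15.3 to 10.7 and 9.19. Within the CENP-O group CENPU had the highest level, at 14.4 RPKM in controls and 32.1 with Caba-780, against 11.0 and 18.7 for CENPQ. The lengths are those of the deposited table, so these levels depend on its gene models.

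**Figure D4:**
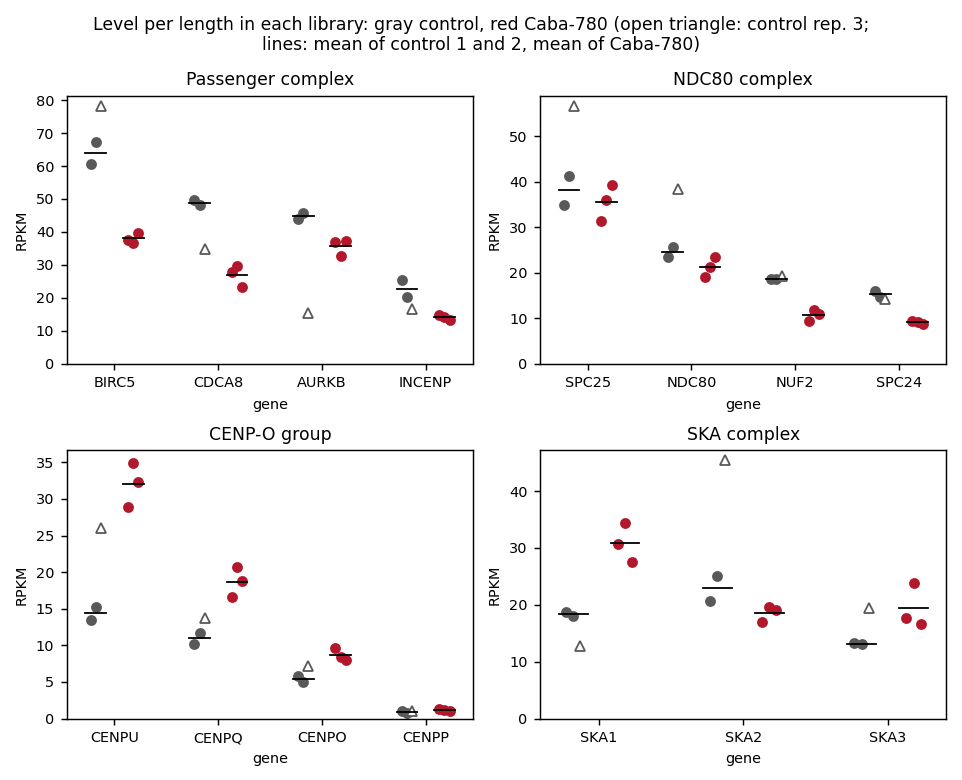
RPKM of each subunit in each library for 4 complexes; gray points are control replicates 1 and 2, open triangles control replicate 3, red points Caba-780, and lines the mean of control replicates 1 and 2 and of the 3 Caba-780 libraries. The passenger complex shows lower treated levels than control replicates 1 and 2 in all 4 subunits, and CENPU shows higher ones.

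The other genes of the pathway were taken from 3 lists of non-members, also chosen with earlier results of these data known. Of 24 further kinetochore partners, 0 were called with 6 libraries, with 4 lower and 1 higher at an unadjusted limma p under 0.05 and 3 lower with DESeq2. The background for these is 6.9% and 10.1% of all genes at an unadjusted p and 3.57% lower with DESeq2. In the 5-library fit 5 fell and 0 rose, against 15.2% and 17.2% of all genes, and the median change was −0.00. Among them KNSTRN, a spindle and kinetochore protein, had 711, 641 and 811 normalized counts in controls and 306, 320 and 227 with Caba-780, and fell by 1.26 ± 0.17 in that fit (limma adjusted p = 2.06e-06). Its change with 6 libraries was −1.35 ± 0.21 (limma adjusted p = 0.0514). Both OIP5 (MIS18 beta) and HJURP, which license and deliver new CENP-A, fell in that fit, by 0.92 ± 0.18 and 0.67 ± 0.14 (limma adjusted p = 0.000299 and 0.000559). With 6 libraries their changes were −1.07 ± 0.23 and −0.50 ± 0.21 and did not pass (limma adjusted p = 0.108 and 0.289). MIS18A, their partner, was not called, with changes of 0.12 in the 5-library fit and −0.06 with 6 libraries.

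Of 20 genes of the anaphase-promoting complex and separase, the target of the checkpoint, 1 fell and 0 rose with 6 libraries, against 0.26% and 0.744% of all genes. In the 5-library fit 7 fell and 0 rose, against 15.2% and 17.2%, with a median change of −0.27. Of the core subunits of the complex, only ANAPC11 and CDC27 were among the 7. The others that fell were CDC20, FZR1, UBE2C, UBE2S and PTTG1. CDC20, the activator that the checkpoint holds, had 4048, 4604 and 2289 normalized counts in controls and 1280, 1143 and 1344 with Caba-780, and fell by 1.78 ± 0.14 in that fit (limma adjusted p = 8.37e-11). With 6 libraries its change was −1.48 ± 0.29 (limma adjusted p = 0.088). PTTG1, which encodes the separase inhibitor securin, had 1675, 2225 and 2151 in controls and 674, 737 and 783 with Caba-780. It fell by 1.45 ± 0.19 with 6 libraries (limma adjusted p = 0.0367), and by 1.40 ± 0.15 without control replicate 3. UBE2C, the ubiquitin-conjugating enzyme of the complex, had 756, 920 and 315 in controls and 462, 482 and 506 with Caba-780. Control replicate 3 lay below all treated libraries and the other controls above them, so the groups overlapped with 6 libraries. UBE2C fell by 0.79 ± 0.15 in the 5-library fit (limma adjusted p = 0.00024), and its 6-library change was −0.32 ± 0.41 (0.699). ESPL1, separase itself, was not called, with changes of 0.36 in the 5-library fit and 0.66 with 6 libraries.

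Of 14 cohesin genes, 0 were called by limma with 6 libraries, with 1 lower and 1 higher at an unadjusted p under 0.05 and 1 higher with DESeq2, against 6.9%, 10.1% and 5.27% of all genes. In the 5-library fit 1 fell and 2 rose, 7.14% and 14.3% of the list, against 15.2% and 17.2% of all genes. ESCO2, the acetyltransferase that establishes cohesion in S phase, had 390 and 372 normalized counts in control replicates 1 and 2, 899 in control replicate 3, and 669, 821 and 662 with Caba-780. Control replicate 3 was above all treated libraries and the other controls below them. ESCO2 rose by 0.90 ± 0.15 in the 5-library fit (limma adjusted p = 5.83e-05), and with 6 libraries its change was 0.49 ± 0.37 (0.531). CDCA5, which encodes sororin, rose by 0.67 ± 0.13 in the 5-library fit (limma adjusted p = 0.000295) and changed by 0.79 ± 0.17 with 6 libraries (0.111). RAD21, the cohesin subunit cut by separase, fell by 0.41 ± 0.14 in the 5-library fit (limma adjusted p = 0.0225), and with 6 libraries its change was −0.62 ± 0.22 (0.246).

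Promoter letters were counted in the window of 250 bases before to 50 after the RefSeq start for 36 of the 45 members. CENPH, CENPL, CENPM, KNL1, TTK, BUB3, KNTC1, BIRC5 and CENPJ were not matched. TTTGAA or TTCGAA was present in 20 of 36 windows (55.6%), against 16.4% of all 35116 promoters of the same length. In 18 of the 36 (50%) a match began within 50 bases of the start site, against 5.01% of all promoters. The letters were present in 7 of 12 members that fell in the 5-library fit, 3 of 7 that rose and 10 of 17 that were not called, so they were found in members of each kind. CCAAT was present in 22 of 36 windows (61.1%), against 34.6% of all promoters. It was in 9 of 12 members that fell, 2 of 7 that rose and 11 of 17 that were not called, and no difference between these was tested. The 4 E2F spellings were found in 3 members (8.33%), CENPA, CENPU and MIS12, against 3.31% of all promoters. A match describes letters in the window and does not show that a factor binds there.

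**Figure D5:**
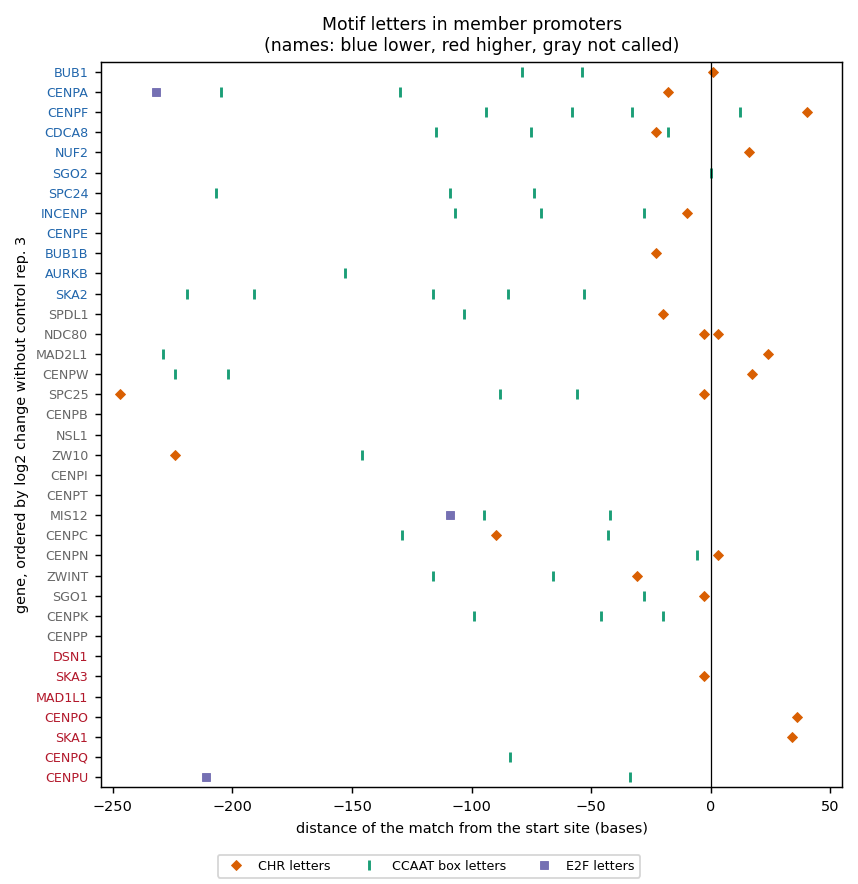
Distance in bases from the start site to each match of CHR, CCAAT box and E2F letters (x axis) in the promoters of 36 genes, ordered from the lowest to the highest change in the 5-library fit; names are blue where lower, red where higher and gray where not called. CHR letters gather around the start site in genes of all 3 colors.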

How the data were processed

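RNA was sequenced from 3 control and 3 Caba-780 samples of T24 cells, grouped by title. The submitters' processing notes name the build hg38 and the tools HISAT2 (version 2.0.5), fastp, DESeq2 (version 1.20.0) and featureCounts (version 1.5.0-p3), without their settings. The deposited library columns hold a normalized signal, in which 100% of values were whole multiples of 1 unit per library (tolerance 1e-06), so whole reads were recovered. The deposited log2 fold change and p-value columns are those of the comparison the authors made, and the deposited gene length (unit other) is in bases. All 45 positions equalled GENCODE v29.

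The main test was limma 3.58.1 (R 4.3.3) on log2(value + 1), with trend and robust moderation, two-sided, for genes that reached 10 normalized counts in 3 or more libraries, with Benjamini-Hochberg adjustment over all genes and a threshold of 0.05. The fit was also run on simulated counts with the same dispersion for every gene and library. No simulated library stood apart, so that run does not show how the fit behaves with control replicate 3. The alternatives were edgeR 4.0.16, DESeq2 1.42.0 and limma-voom on recovered reads, other scalings, filters and pseudocounts, the replicate number as a block, and leaving out libraries. GC content is the median over a gene's GENCODE v29 transcripts.

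Values in every library are printed for members called with 6 libraries, the 2 with the lowest p in the 5-library fit in each role group of at least 3, all that rose in that fit, and CENPA. Of the other 3 lists, the 3 genes with the lowest p are named. Further genes were named after their values were seen. The members and lists were chosen with earlier results of these data known. Counting floors of 3 reads equal 0.188 to 0.206 CPM and cover counting error only. Of the 45 members, 14 share exon bases with another gene and 7 share over 10% with 1 of them, and CENPC, CENPI, CENPU, SKA2, BUB1, BUB3 and SGO1 have pseudogenes by name, so their counts are less certain.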

Additional observations from a re-analysis of the deposited data

How the results depend on the processing

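In the 6-library comparison, the count of 2 members lower and 0 higher stayed with library totals, TMM factors, upper quartile, a filter of 5 CPM, pseudocounts of 0.5 and 5, both edgeR fits and limma-voom. Over all genes those fits called 29 to 43 lower and 79 to 140 higher, of 13847 tested, or of 10781 with the filter of 5 CPM. The count of members was 1 lower without a filter, against 27 lower and 71 higher of 23619 genes. It was 11 lower and 2 higher with DESeq2, against 494 and 729 of 13845 genes. Leaving out 1 library gave 0 to 14 lower and 0 to 9 higher, with 14 and 9 reached without control replicate 3 and 0 in both directions without any other single library. Over all genes those 5 fits called 0 lower and 0 to 1 higher, so the 0 for the members is no result about them. In them 1092 to 2388 genes had an unadjusted limma p under 0.05. With the replicate block, 0 members were lower and 0 higher, and over all genes 0 were lower and 0 higher. In that fit 1563 genes had an unadjusted limma p under 0.05. Same-numbered libraries deviated together with r of 0.30, −0.33 and −0.10 across genes, and control replicates 2 and 3 correlated best with another number. These deviations are from group means, on which control replicate 3 weighs, so they cannot decide whether the numbers pair the libraries. Leaving out control replicate 3 together with another choice gave 14 lower and 9 higher with edgeR or TMM factors, 15 and 9 with DESeq2, and 11 and 12 with library totals, which raise the median change of all genes from −0.02 to 0.08. Over all genes tested, the shares lower and higher were 14.9% and 17.5% with edgeR, 14% and 16.6% with DESeq2, and 9.7% and 21.5% with library totals. Each second library was also left out in turn, chosen after seeing the data. Without control replicate 1 or 2 this left 1 control. Without a Caba-780 library, 1632 to 2043 genes were called lower and 1862 to 2224 higher, of 13308 to 13369 tested. The counts of members without Caba-780 replicate 2 are given above. Over these 9 alternatives, 10 of the 14 members that fell kept their call in each (CENPA, NUF2, SPC24, BUB1, CENPE, CENPF, INCENP, BIRC5, CDCA8 and SGO2), as did 3 of the 9 that rose (CENPU, SKA1 and CENPJ). TTK kept it in 4, SKA2 in 5, and AURKB, DSN1 and SKA3 in 6.

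The 6-library call of CENPA was also lost without a filter. The change of CENPL turned to −0.05 without control replicate 1, −0.13 without control replicate 2, −0.0032 with edgeR and DESeq2 size factors and −0.024 with DESeq2, and that of DSN1 to −0.071 without control replicate 1. None of these was called, and the cause was not tested. Over all fits that left out libraries the change ran from −0.13 to 0.57 for CENPL and from −0.071 to 0.49 for DSN1.

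For the other kinetochore partners, 1 was lower with TMM factors, a filter of 5 CPM, a pseudocount of 5 or limma-voom, 3 with DESeq2, and 0 to 5 when 1 library was left out. Without control replicate 3, 5 were lower with edgeR, DESeq2, library totals or TMM factors, and 1 was higher with DESeq2 or TMM factors and 4 with library totals. A second library left out gave 3 to 8 lower and 0 to 1 higher. For the anaphase-promoting complex and separase, 3 were lower with DESeq2, 0 with the replicate block and 0 to 7 when 1 library was left out, then 7 without control replicate 3 under each test or scaling, with 1 higher with library totals or TMM factors, and 5 to 8 lower and 0 to 1 higher with a second library left out. For cohesin, 1 was higher with DESeq2. Leaving out 1 library gave 0 to 1 lower and 0 to 2 higher. Without control replicate 3, 1 was lower with edgeR, DESeq2 or TMM factors, 3 were higher with edgeR or library totals and 2 with DESeq2 or TMM factors, and 2 to 3 were higher and 0 to 1 lower with a second library left out. The members had at least 109 reads in every library. The 6-library fit carries the spread that control replicate 3 adds, and the 5-library fit rests on 2 controls. The ranges with a second library left out include fits that rest on 1 control. The counts and shares over all genes given for the fits above are the background for these lists too. With TMM factors and without control replicate 3, 1983 genes were lower and 2428 higher, of 13708 tested. No background is given for the fits that rest on 1 control.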

Other observations

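EPCAM, an epithelial adhesion gene among the markers, had 38.3 normalized counts in control replicate 3 and 0 in each of the other 5 libraries.

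In 6 complexes with more than 2 subunits among the members, the spread of change between the lowest and the highest subunit in the 5-library fit was 0.53 for the passenger complex and for the MIS12 complex with KNL1 and ZWINT, 0.70 for the NDC80 complex, 0.72 for the CENP-O group, 0.40 for the group of CENPH, CENPI, CENPK and CENPM, and 1.04 for the SKA complex.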
